A study of Onthophagus taurus with 60 samples.

Results

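The comparison sets the dorsal centre of the prothorax of the horned dung beetle Onthophagus taurus against the front edge of the same segment. Its members are 12 of the 60 RNA-seq libraries of the series, 6 of dorsal prothorax (the dorso-central epidermis) and 6 of anterior margin, chosen by the tissue name in the column headers of the deposited count table and paired by replicate number. All libraries come from epidermis of male prepupae, and the labels give neither a strain nor a treatment. Levels are also given for the posterior margin (6 libraries), the carinated margin (12), the thoracic horn (6), the wing of the second thoracic segment (T2 wing, 12), the support structures of the abdomen (6) and the dorsal head (6). The 12 libraries of carinated margin and of wing are left and right tissues of the same individuals, per the series description, and their columns name no side. The series description lists dorsal prothorax and dorsal head as contrast tissues without a published tie to wings.

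A prepupa is a larva about to pupate, whose epidermis has come away from the old cuticle and is being shaped into that of the pupa. The prothorax is the first thoracic segment. It bears legs but no wings, and in Onthophagus its dorsal plate, the pronotum, covers the front of the body and can carry a thoracic horn. The margins of the pronotum are folds where the epidermis turns under, while the dorsal centre is a broad sheet. Nearly all gene symbols in the RefSeq gene table are locus numbers, so no role is given to the genes below. Transcripts are named by their RefSeq identifier, with the locus where the table gives one. Marker lists for other cell types, such as muscle, fat body and haemocytes, could not be matched to locus numbers, and the tissue labels were not checked against marker genes.

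Totals ran from 13.7 to 16.7 mega-counts (M) in dorsal prothorax and from 15.1 to 18.6 M in anterior margin, and 74.8 to 87.3 M in the head against 12.1 to 21.4 M in all other tissues. The 10 most abundant transcripts held 34.5 to 36.7% of the counts in dorsal prothorax and 33.9 to 41.0% in anterior margin. Libraries were scaled by TMM (trimmed mean of M-values, which sets the bulk of transcripts equal between libraries). The TMM factors of the 12 libraries were 0.971 to 1.13 in dorsal prothorax and 0.787 to 1.18 in anterior margin, with anterior margin library 1 the lowest. Levels below are TMM-scaled CPM (counts scaled to a common library total), and fold changes are log2 values of dorsal prothorax minus anterior margin with their standard error (SE) from the paired fit.

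Of 12080 transcripts tested, 1812 (15%) differed between dorsal prothorax and anterior margin, at an adjusted p under 0.05 in edgeR's quasi-likelihood test with replicate number as a block and Benjamini-Hochberg adjustment. Of these, 909 (7.52% of those tested) were higher and 903 (7.48%) lower in dorsal prothorax. Changes of at least 2-fold were made by 335 higher (2.77%) and 375 lower (3.1%) transcripts, and changes of at least 8-fold by 33 higher and 87 lower ones. The median change was 0.79 (log2, middle 50% from 0.50 to 1.24) among the higher and -0.80 (sizes 0.48 to 1.48) among the lower transcripts, against -0.02 over all tested. All 6 pairs moved the same way in 882 of the 909 and 870 of the 903. The paired test made its calls from these same pairs, so this agreement follows largely from the call. Levels of the 6 dorsal and 6 anterior libraries did not overlap in 296 of the 909 and 337 of the 903, beside 2.69% and 3.37% of all tested transcripts that did not overlap in those directions. Since whole tissue was sequenced, fewer cells of a type and less RNA per cell cannot be told apart.

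The balance of directions depended on the scaling. With total counts in place of TMM, 1080 transcripts were higher and 500 lower, so that 68.4% of calls were higher in dorsal prothorax against 50.2% with TMM, and the median of all tested transcripts shifted by 0.10 (log2). Under total counts 1330 of the 1812 (73.4%) kept their call, and none of the 1812 changed sign. Without the replicate block 938 transcripts were called. Leaving out replicate 3, 5 or 6 left 1197, 1076 and 1037.

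The share of transcripts called grew with level. It was 2.75% of 982 transcripts under 1 CPM, 7.99% of 6611 at 1 to 10 CPM, 25.2% of 3806 at 10 to 100 CPM, 43.6% of 603 at 100 to 1000 CPM and 42.3% of 78 at 1000 CPM or more. The median size of a called change was 1.81 (log2) in the lowest band and 0.62 at 10 to 100 CPM, so at low levels only large changes were called. Non-coding transcripts were called in 87 of 552 (15.8%), close to the 15% of coding ones. Of these 87, 61 were higher and 26 lower in dorsal prothorax.

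**Figure D1:**
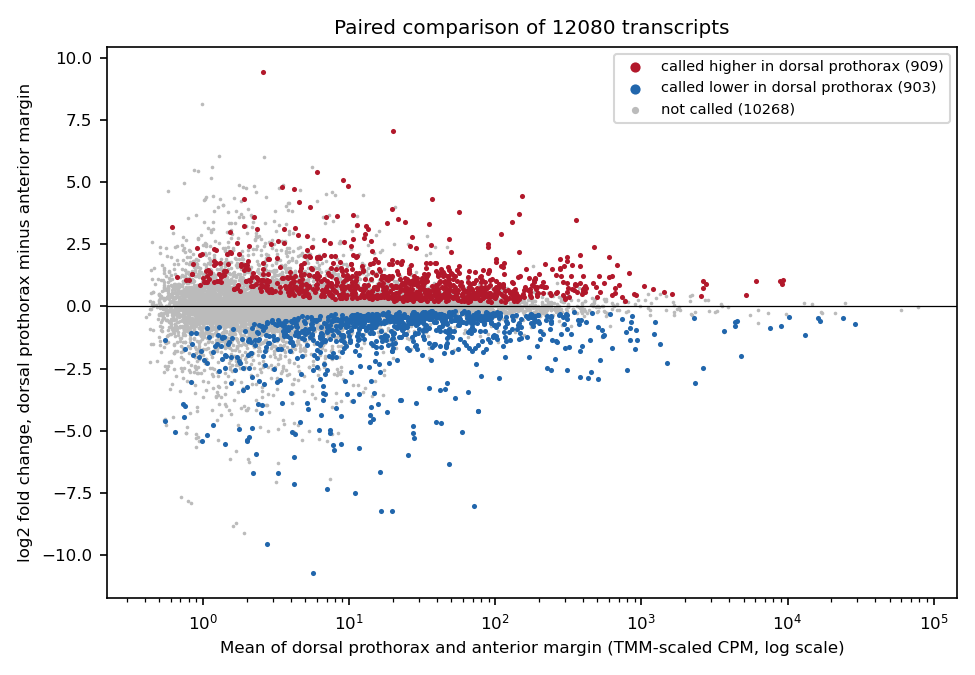
Each point is a transcript, with its mean level (TMM-scaled CPM, log scale) on the x axis and the log2 fold change of dorsal prothorax minus anterior margin on the y axis. The 909 transcripts called higher and the 903 called lower lie on both sides of 0 at all levels, and the lower side reaches further from 0, with 87 against 33 transcripts past 8-fold.

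Transcripts that were nearly absent from the anterior margin and present in dorsal prothorax came first among the higher ones. LOC111419668 (XM_023052514.1) ran from 3.25 to 120 CPM in dorsal prothorax with a median of 20.2, against 0 to 0.496 CPM in anterior margin with a median of 0.191. The lowest dorsal library stood above the highest anterior one, while the dorsal libraries spread 36.8-fold among themselves. The difference was 7.05 ± 0.69 (log2, SE; edgeR adjusted p = 0.0019). Its mean in the other tissues was at most 7.03 CPM, in the horn, against 39.6 ± 45.4 CPM (SD, n = 6) in dorsal prothorax. LOC111414125 (XM_023045312.1) ran from 37.5 to 121 CPM (median 66.0) in dorsal prothorax against 1.67 to 13.5 CPM (median 2.43) in anterior margin, without overlap. It was higher by 4.32 ± 0.38 (log2, SE; edgeR adjusted p = 0.0014), and the carinated margin, at 23.6 CPM, was the highest of the other tissues.

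LOC111429171 (XM_023065013.1) varied strongly between replicates in both tissues. It ran from 33.5 to 1190 CPM (median 77.1) in dorsal prothorax against 2.28 to 33.9 CPM (median 4.13) in anterior margin, and replicate 4 held the highest value of both. The groups overlapped by this replicate's anterior library, but within pairs dorsal prothorax was 10.3 to 42.9 times higher. The difference was 4.44 ± 0.32 (log2, SE; edgeR adjusted p = 0.00082). The horn averaged 142 CPM and the wing 0.611 CPM.

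The same pattern of shared replicate levels held for XM_023050163.1, which has no gene in the RefSeq table. Its level ran from 134 to 1050 CPM (median 400) in dorsal prothorax against 37.3 to 343 CPM (median 105) in anterior margin, so the groups overlapped. The ratio within pairs nevertheless stayed between 3.06 and 4.39. It was higher by 1.84 ± 0.07 (log2, SE; edgeR adjusted p = 0.00029) with the block, and by 1.76 with an adjusted p of 0.12 without it. All other tissues averaged 54.0 to 211 CPM.

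Other transcripts were even across libraries. LOC111413751 (XM_023044849.1) ran from 16.1 to 29.99 CPM (median 24.7) in dorsal prothorax against 2.13 to 3.46 CPM (median 2.78) in anterior margin. The groups did not overlap, the difference was 3.14 ± 0.14 (log2, SE; edgeR adjusted p = 0.00029), and the remaining tissues averaged 0.969 to 6.39 CPM. LOC111414687 (XM_023046090.1) ran from 365 to 677 CPM (median 513) in dorsal prothorax against 120 to 188 CPM (median 168) in anterior margin. This transcript was higher by 1.65 ± 0.08 (log2, SE; edgeR adjusted p = 0.00029), and its next level was 280 CPM in the wing. XM_023048390.1 ran from 10.8 to 23.9 CPM (median 18.9) in dorsal prothorax against 2.71 to 5.83 CPM (median 4.46) in anterior margin, a difference of 2.04 ± 0.09 (log2, SE; edgeR adjusted p = 0.00029). Unlike the others it was highest in the horn, at 42.2 CPM against a mean of 18.2 CPM in dorsal prothorax. With total counts the horn, at 24.0 CPM, was just above the 22.1 CPM of dorsal prothorax.

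Of the called transcripts, 4 averaged at least 4 times more in dorsal prothorax than in each of the other 7 tissues, a list chosen after its values were seen. They were LOC111419668, LOC111420729 (XM_023053771.1), LOC111421165 (XM_023054309.1) and LOC111429421 (XM_023065335.1). LOC111420729 averaged 33.7 ± 20.3 CPM in dorsal prothorax against 2.88 ± 1.37 CPM in anterior margin (SD, n = 6 each), and at most 7.07 CPM elsewhere. LOC111421165 averaged 37.3 ± 33.1 CPM in dorsal prothorax against 1.87 ± 1.02 CPM in anterior margin (SD, n = 6 each), and at most 7.01 CPM elsewhere. Both had groups that did not overlap, with differences of 3.36 ± 0.27 and 3.92 ± 0.58 (log2, SE). LOC111429421 averaged 8.99 CPM in dorsal prothorax against 1.64 CPM in anterior margin, and it was higher in 5 of 6 pairs only.

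Several of the largest differences rested on low counts. XM_023047167.1 had 0 counts in all 6 anterior libraries and 557 in the dorsal ones, at 1.04 to 10.03 CPM (median 4.29). It was at least 193-fold higher, from summed counts scaled for library size against a floor of 3 counts over the anterior libraries, with an edgeR adjusted p of 0.046. The wing, at 19.1 CPM, and the carinated margin, at 14.6 CPM, held more of it than dorsal prothorax. LOC111426916 (XM_023061806.1) ran from 6.95 to 14.9 CPM (median 12) in dorsal prothorax against 0 to 0.856 CPM (median 0.356) in anterior margin, a difference of 5.42 ± 1.17 (log2, SE; edgeR adjusted p = 0.027). Its gene, summed over 3 tested transcripts, differed by 3.27. Both calls were lost on leaving out any of the 6 pairs, with edgeR adjusted p of 0.054 to 0.072 for the first and 0.050 to 0.060 for the second.

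XM_023044750.1, XM_023061434.1 and the non-coding XR_002706377.1 averaged 17.3, 6.55 and 7.65 CPM in dorsal prothorax, against 0.766, 0.401 and 0.707 CPM in anterior margin. They were higher by 5.10 ± 1.04, 4.80 ± 1.09 and 4.74 ± 1.08 (log2, SE; edgeR adjusted p = 0.022, 0.032 and 0.032). XM_023044750.1 was as high in the abdominal support, at 19.1 CPM. The first lost its call without replicate 2, 3 or 5, the second without replicate 1, 3, 4, 5 or 6, and the third without replicate 3, 4, 5 or 6, with edgeR adjusted p of at most 0.065, 0.071 and 0.094. XR_002706377.1 also lost it without the block, at an adjusted p of 0.15.

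The most abundant transcripts that were higher by at least 2-fold were the coding LOC111421916 (XM_023055119.1) and 3 non-coding ones. LOC111421916 ran from 9974 to 15648 CPM (median 12326) in dorsal prothorax against 4777 to 7239 CPM (median 6081) in anterior margin, without overlap, and it was higher by 1.06 ± 0.18 (log2, SE; edgeR adjusted p = 0.013). The abdominal support came close to the dorsal level, at 11095 CPM. The non-coding LOC111421936 (XR_002707260.1), XR_002707010.1 and XR_002707011.1 averaged 8028, 3451 and 11636 CPM in dorsal prothorax, against 4173, 1793 and 6056 CPM in anterior margin. All 3 overlapped between the tissues, were higher by 1.02, 1.04 and 1.01 (log2; SE 0.21, 0.22 and 0.22; edgeR adjusted p = 0.025, 0.024 and 0.029). They were highest in the horn with TMM and in dorsal prothorax with total counts. Each lost its call without replicate 4, 5 or 6 (adjusted p of at most 0.075, 0.077 and 0.088) and without the block (0.25, 0.26 and 0.27).

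**Figure D2:**
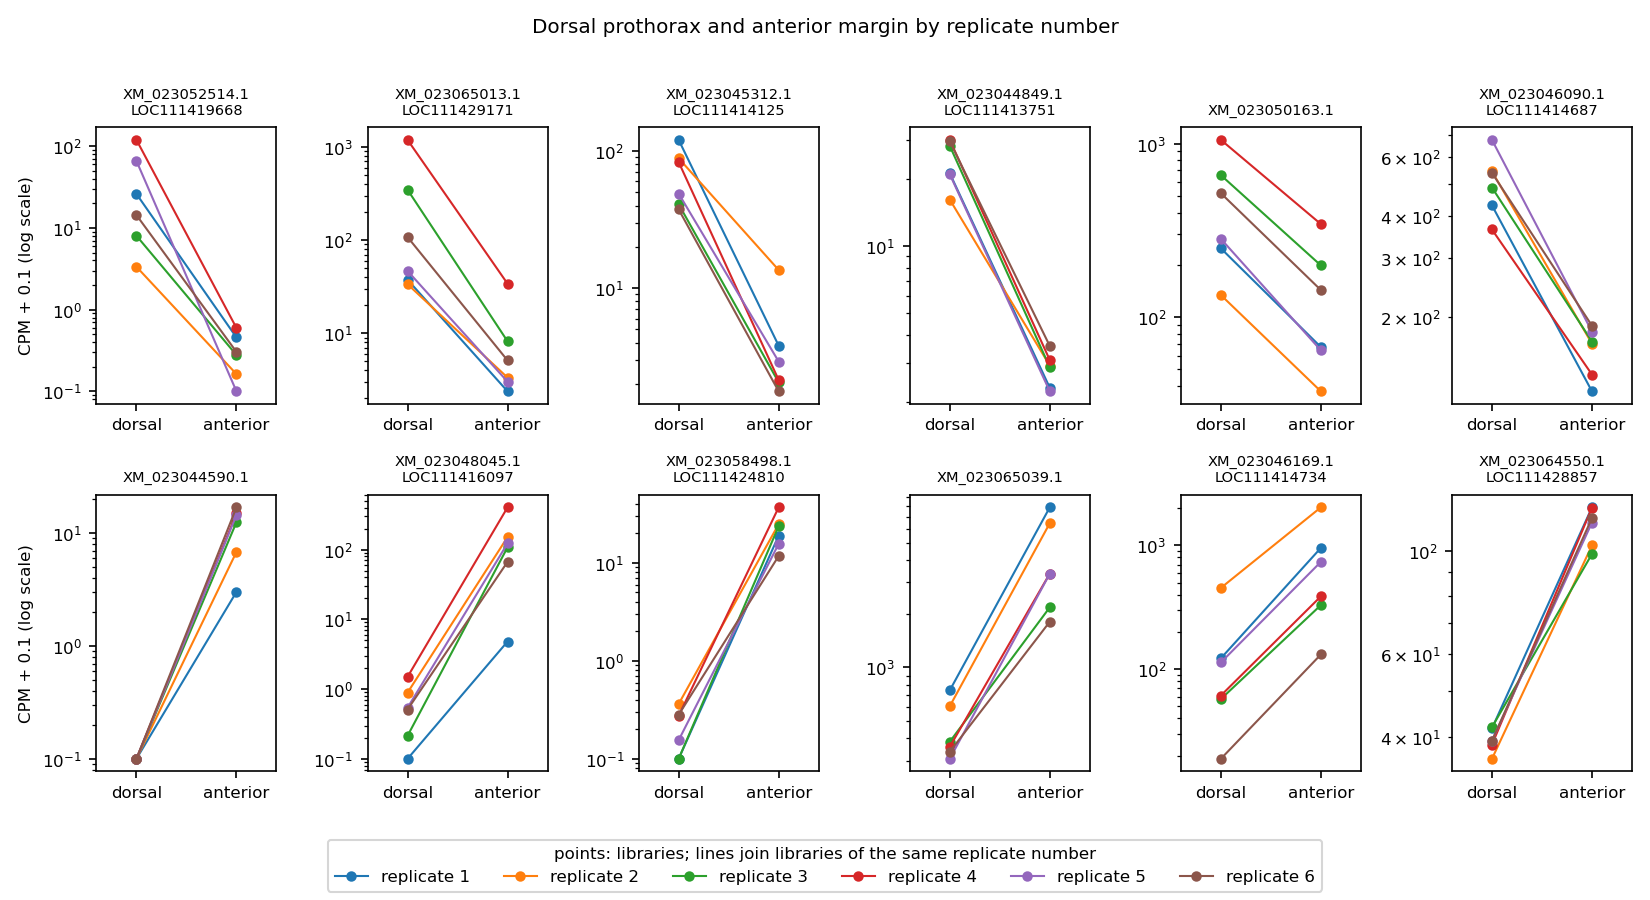
Level of 12 transcripts in each library (CPM + 0.1, log scale), dorsal prothorax at the left and anterior margin at the right of each panel, with lines joining libraries of the same replicate number. The top row holds transcripts higher and the bottom row transcripts lower in dorsal prothorax, and all lines of a panel slope the same way even where the groups overlap, as for XM_023050163.1 with ratios of 3.06 to 4.39. Transcripts were named only if all pairs had the same sign, so the shared slope follows from that choice.

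On the other side, some transcripts were far higher in the anterior margin than in any other tissue. XM_023044590.1, without a gene in the table, had 0 counts in all 6 dorsal libraries, against 1385 counts in the anterior libraries at 2.92 to 16.9 CPM (median 13.4). It was at least 443-fold lower in dorsal prothorax, against the same floor of 3 counts over the group (edgeR adjusted p = 0.030, and 0.051 without replicate 6). No other tissue averaged more than 0.522 CPM. LOC111416097 (XM_023048045.1) ran from 0 to 1.39 CPM (median 0.424) in dorsal prothorax against 4.71 to 402 CPM (median 115) in anterior margin, a difference of -8.05 ± 0.29 (log2, SE; edgeR adjusted p = 0.00029). The horn averaged 23.2 CPM, the posterior margin 18.4 CPM and the abdominal support 0.

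XM_023050448.1 ran from 0.590 to 2.15 CPM (median 1.15) in dorsal prothorax against 11.2 to 75.4 CPM (median 57.4) in anterior margin. It differed by -5.29 ± 0.57 (log2, SE; edgeR adjusted p = 0.0028), and all other tissues averaged at most 3.76 CPM. Together with XM_023044591.1, LOC111419119 (XM_023051884.1) and LOC111426935 (XM_023061832.1), these 3 transcripts made up the 6 called ones that averaged at least 4 times more in anterior margin than in each of the other 7 tissues, again a list chosen after its values were seen. Anterior margin library 1 was the lowest of the 6 for XM_023044590.1, LOC111416097 and XM_023050448.1. It also had the lowest TMM factor. Without replicate 1 the first kept its call (edgeR adjusted p = 0.037), and LOC111416097 and XM_023050448.1 differed by -8.03 and -5.74 (log2; edgeR adjusted p = 0.0021 and 0.0023). With total counts they differed by -7.96 and -5.19 (log2).

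LOC111424810 (XM_023058498.1) ran from 0 to 0.262 CPM (median 0.115) in dorsal prothorax against 11.6 to 36.7 CPM (median 21.2) in anterior margin. Its difference was -7.52 ± 0.62 (log2, SE; edgeR adjusted p = 0.0011). It was not particular to the front edge, with 26.3 CPM in the posterior margin and 19.3 CPM in the wing. LOC111414393 (XM_023045721.1) had 0 counts in dorsal prothorax and 607 in anterior margin, at 2.12 to 11 CPM, and was at least 194-fold lower (edgeR adjusted p = 0.045). That call was lost on leaving out any of the 6 pairs (0.054 to 0.072), and its gene, summed over 3 tested transcripts, differed by -1.98.

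In 4 other transcripts all dorsal counts came from a single library. XM_023061940.1 had 3.82 CPM in dorsal library 1 and 0 in the other dorsal libraries, against 9.48 to 54.3 CPM (median 44.3) in anterior margin. LOC111422534 (XM_023055753.1) had 1.3 CPM in dorsal library 1 and 0 in the others, against 13.1 to 75.5 CPM (median 27.4) in anterior margin, and 81.2 CPM in the horn. LOC111418242 (XM_023050741.1) had 4.04 CPM in dorsal library 2 and 0 in the others, against 3.38 to 23.8 CPM (median 12.9). XM_023056267.1 had 2.53 CPM in dorsal library 1 and 0 in the others, against 1.76 to 15 CPM (median 8.62). Their fitted differences were -8.24, -8.23, -7.35 and -7.15 (log2; SE 1.70, 1.31, 1.35 and 1.45; edgeR adjusted p = 0.023, 0.0095, 0.015 and 0.022). Without that library's pair every dorsal library was at 0. XM_023061940.1 and XM_023056267.1 lost their calls without replicate 2, 3, 4, 5 or 6 (edgeR adjusted p of at most 0.071 and 0.067), LOC111418242 without replicate 6 (0.051), and LOC111422534 kept its call throughout. Summed over 3 tested transcripts, the gene LOC111422534 differed by -4.70 (log2). The 4 transcripts were not particular to the front edge. Besides LOC111422534 in the horn, XM_023061940.1 averaged 35.04 CPM in the abdominal support against 38.57 CPM in anterior margin. LOC111418242 averaged 9.88 CPM in the abdominal support against 13.54 CPM in anterior margin. XM_023056267.1 averaged 10.03 CPM in the horn and 8.71 CPM in the wing, against 7.93 CPM in anterior margin. With total counts its level was highest in the wing.

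Abundant transcripts that were lower in dorsal prothorax were high in most other tissues. XM_023065039.1 ran from 306 to 742 CPM (median 370) in dorsal prothorax against 1803 to 7910 CPM (median 3356) in anterior margin, without overlap, a difference of -3.08 ± 0.20 (log2, SE; edgeR adjusted p = 0.00053). All 6 other tissues averaged 2538 CPM or more, up to 12212 CPM in the horn (with total counts the head was highest, at 10114 CPM). LOC111418884 (XM_023051587.1) ran from 383 to 1415 CPM (median 766) in dorsal prothorax against 2687 to 6182 CPM (median 4844) in anterior margin, and LOC111424433 (XM_023057956.1) from 315 to 780 CPM (median 497) against 1588 to 3443 CPM (median 2632). Both were without overlap, differed by -2.49 ± 0.25 and -2.26 ± 0.18 (log2, SE; edgeR adjusted p = 0.0020 and 0.00099), and were lowest of all in the horn, at 271 and 118 CPM.

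LOC111414734 (XM_023046169.1) overlapped between the tissues, at 18.7 to 453 CPM (median 87) in dorsal prothorax against 131 to 2031 CPM (median 562) in anterior margin. Within pairs the dorsal level was 0.128 to 0.223 times the anterior one, and the difference was -2.65 ± 0.11 (log2, SE; edgeR adjusted p = 0.00029; 0.092 without the block). LOC111428857 (XM_023064550.1) and LOC111414176 (XM_023045406.1) were even across libraries. They averaged 39.3 ± 2.23 and 50.2 ± 4.68 CPM in dorsal prothorax, against 113 ± 10.7 and 135 ± 10.9 CPM in anterior margin (SD, n = 6 each). Their differences were -1.53 ± 0.07 and -1.43 ± 0.05 (log2, SE; edgeR adjusted p = 0.00029 for both), and both averaged lower in dorsal prothorax than in any other tissue, except that with total counts the horn, at 46.3 CPM, was just below the 47.5 CPM of LOC111428857 in dorsal prothorax.

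Of called transcripts with a symbol other than a locus number and the same sign in all 6 pairs, 3 were higher and 4 lower in dorsal prothorax. They are given here by symbol only, with differences from -1.17 to 1.3 (log2). DCX-EMA (XM_023047890.1) averaged 1.20 CPM in dorsal prothorax against 0.480 CPM in anterior margin, S1 (XM_023049042.1) 20.6 against 16.0 CPM, and betaCO (XM_023064597.1) 60.6 against 50.6 CPM. REPTOR-B (XM_023061826.1) averaged 2.77 CPM in dorsal prothorax against 5.80 CPM in anterior margin, ClpP (XM_023062255.1) 4.77 against 6.26 CPM, and MR 10.7 against 18.3 CPM in XM_023044480.1 and 25.3 against 39.8 CPM in XM_023044476.1. Summed over its transcripts, the gene MR differed by only -0.33 (log2). XM_023044480.1 of MR kept its call whichever pair was left out, with edgeR adjusted p of at most 0.028, and lost it without the block (0.28). S1, betaCO and ClpP lost theirs on leaving out any pair (edgeR adjusted p of up to 0.11, 0.090 and 0.11). DCX-EMA did so in 4 of 6 cases (without replicate 1, 2, 4 or 6), REPTOR-B in 5 (all but replicate 2) and XM_023044476.1 in 4 (replicate 2, 3, 5 or 6), with edgeR adjusted p of up to 0.098, 0.089 and 0.083. With total counts betaCO, REPTOR-B, ClpP and XM_023044476.1 lost their calls (edgeR adjusted p = 0.051, 0.069, 0.23 and 0.079), and the others kept theirs.

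**Figure D3:**
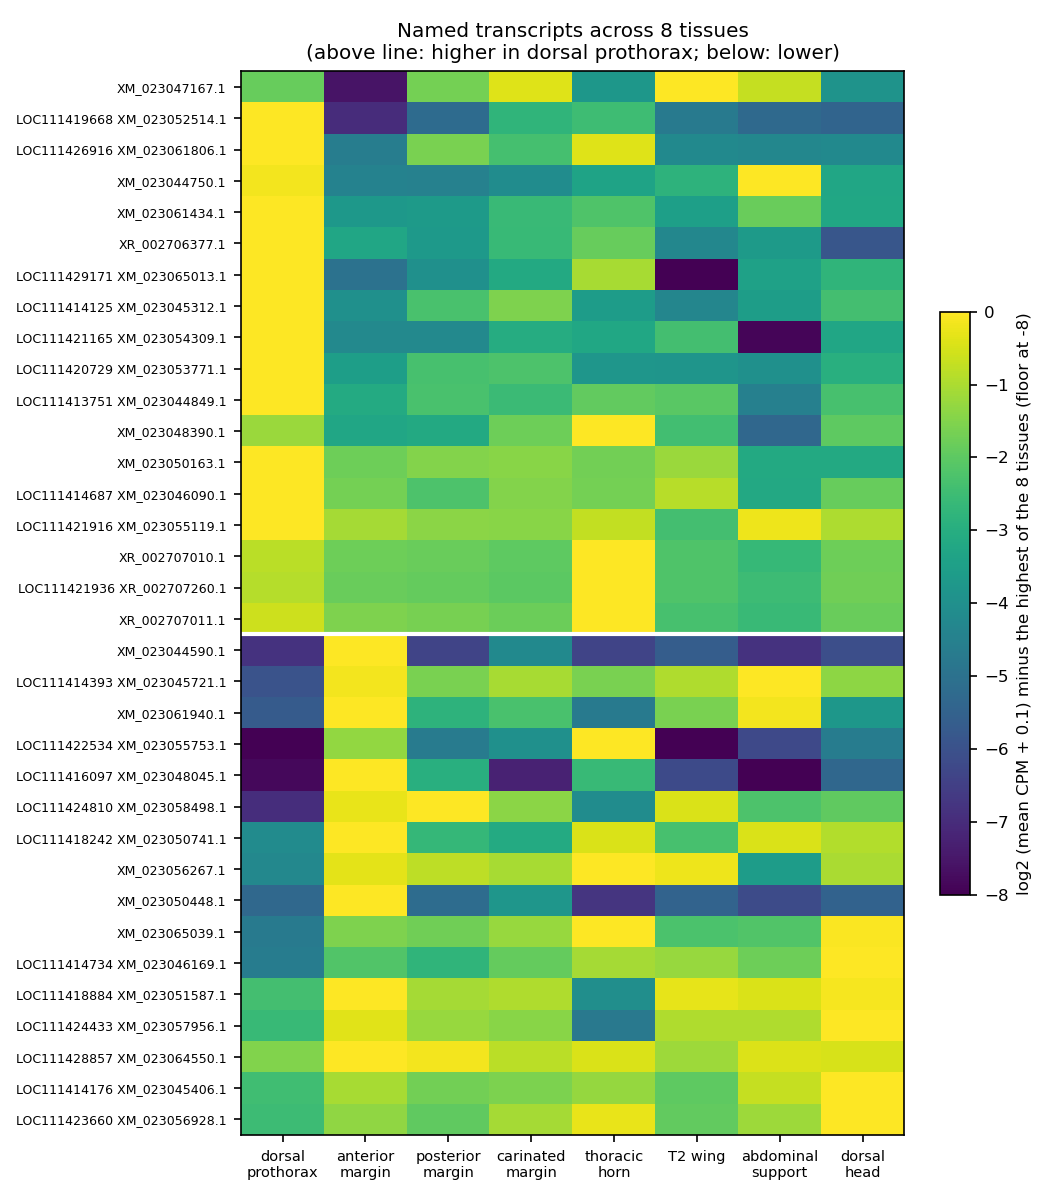
Mean level of transcripts named above across the 8 tissues, as log2 (mean CPM + 0.1) minus that of the highest tissue in the row, with dark colours for low levels. Above the line, XM_023052514.1 and XM_023053771.1 peak in the dorsal prothorax column, and below it XM_023044590.1, XM_023048045.1 and XM_023050448.1 peak in the anterior margin column, while many others peak in a tissue outside the comparison.

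Across all called transcripts, the other tissues were placed on a scale of log2 CPM on which 0 is the anterior margin and 1 the dorsal prothorax. For the 909 higher transcripts the median position was 0.13 for the posterior margin, 0.12 for the carinated margin, 0.41 for the horn, -0.14 for the wing, -0.00029 for the abdominal support and -0.57 for the head. For the 903 lower transcripts it was 0.29 for the posterior margin, 0.23 for the carinated margin, 0.60 for the horn, 0.28 for the wing, 0.11 for the abdominal support and -0.10 for the head. The posterior and carinated margins thus lay nearer the anterior margin than the dorsal centre in both sets, and of all medians only that of the horn passed 0.5, in the lower set (with 2-fold changes alone, also the wing, at 0.51). Since the transcripts were chosen for a difference between the tissues at 0 and 1, these positions are a description. The horn's position depends on scaling, its TMM factors over all 60 libraries being 0.514 to 0.616 against 1.13 to 1.32 in dorsal prothorax and 0.929 to 1.38 in anterior margin. With total counts its medians became -0.73 and 2.10. The posterior and carinated margins then stood at 0.046 and -0.071 in the higher set and at 0.41 and 0.47 in the lower set. Medians of the abdominal support and head also moved, and those of the wing hardly did.

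All 6 other tissues lay on the anterior side of the midpoint in 276 of the 909 higher transcripts (30.4%) and in 133 of the 903 lower ones (14.7%). Among transcripts that were not called the shares were 17.3% of 4966 with a higher and 10.8% of 5302 with a lower dorsal level. All 6 lay on the dorsal side in 4 of the higher and 17 of the lower transcripts, and among those not called in 3.66% and 4.32%. Dorsal prothorax was the highest of the 8 tissues in 511 of the 909 (56.2%, against 18.7% of all tested) and the lowest in 352 of the 903 (39.0%, against 11.9%). Anterior margin was the highest in 126 of the 903 (14%, against 5.13%) and the lowest in 74 of the 909 (8.14%, against 4.30%). With total counts dorsal prothorax was the highest in 79.4% of the higher set, against 33.8% of all tested, and the lowest in 13.5% of the lower set, against 2.54%. Anterior margin was then the highest in 25.2% of the lower set, against 8.73%, and the lowest in 2.97% of the higher set, against 0.977%. Each set was chosen by its direction, so part of these excesses over all tested transcripts is fixed by that choice.

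**Figure D4:**
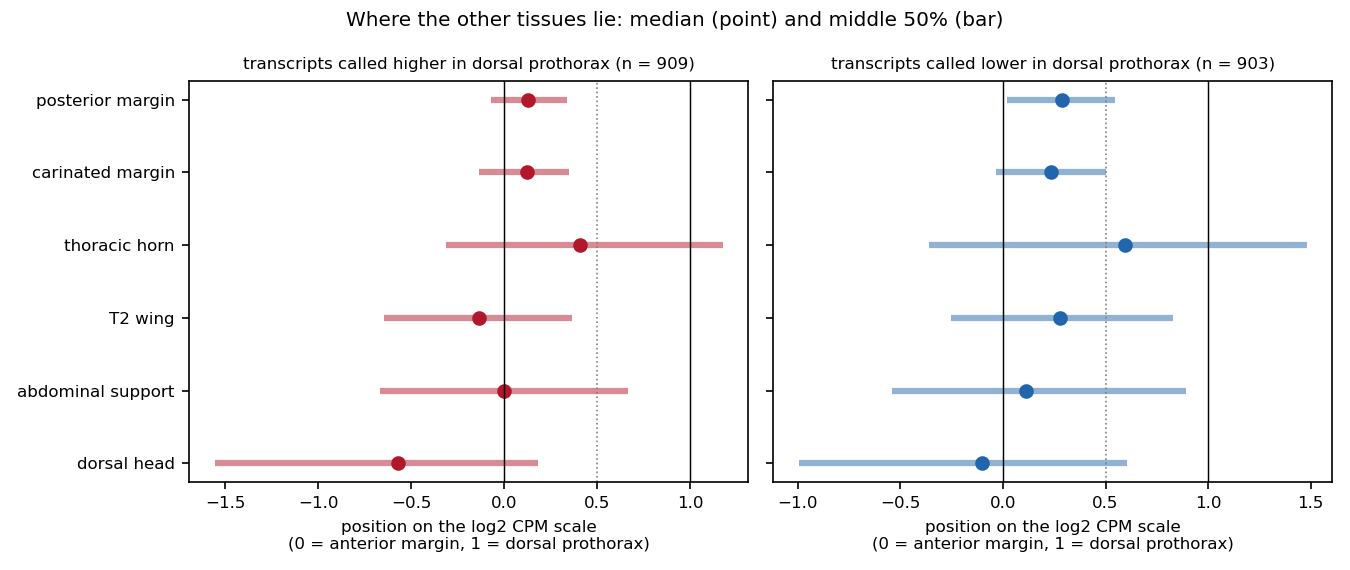
Position of each other tissue between anterior margin (0) and dorsal prothorax (1) on the log2 CPM scale, for transcripts called higher (left panel) and lower (right panel) in dorsal prothorax. Points are medians and bars the middle 50%, and the posterior and carinated margins sit at 0.12 to 0.29 with narrow bars, while the horn, wing, abdomen and head spread widely.

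Genes next to each other in the RefSeq gene table were at times called in the same direction, with 10 runs of 3 or more consecutive genes and 74 of 2. Whether this is more than the order of genes would give was not tested. The longest run held 4 genes that were higher in dorsal prothorax. LOC111426566, LOC111426568, LOC111426570 and LOC111426189 averaged 81.4, 236, 8.54 and 91.6 CPM there against 31.4, 145, 6.07 and 39.1 CPM in anterior margin, with differences of 1.35, 0.71, 0.49 and 1.21 (log2; edgeR adjusted p of 0.00097, 0.0023, 0.014 and 0.0015). Of these only LOC111426568 and LOC111426189 did not overlap between the tissues, and all 4 calls held whichever pair was left out. LOC111426566 lost its call in a fit of 30 libraries of 5 tissues, with the block (edgeR adjusted p = 0.20) and without it (0.31).

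Among runs that were lower in dorsal prothorax, LOC111423658, LOC111423659 and LOC111423660 held highly abundant transcripts. They averaged 85.7, 6746 and 8036 CPM in dorsal prothorax against 214, 11202 and 18242 CPM in anterior margin, with differences of -1.28, -0.79 and -1.15 (log2; edgeR adjusted p of 0.0037, 0.0063 and 0.0035). Each was highest in the head, at 931, 22320 and 45797 CPM. LOC111428004, LOC111428021 and LOC111428022 averaged 3.25, 335 and 251 CPM in dorsal prothorax against 9.31, 756 and 641 CPM in anterior margin, with differences of -1.56, -1.18 and -1.37 (log2; edgeR adjusted p of 0.0032, 0.00053 and 0.00056). All 3 were highest in posterior margin or head. LOC111424101 had the strongest change of the runs, at 71.5 ± 27.2 CPM in dorsal prothorax against 381 ± 82.6 CPM in anterior margin (SD, n = 6 each), or -2.48 ± 0.13 (log2, SE; edgeR adjusted p = 0.00036), beside smaller changes of its neighbours LOC111424151 (-1.16) and LOC111424114 (-0.55). LOC111424151, at 0.780 CPM in dorsal prothorax against 1.75 CPM in anterior margin, lost its call without replicate 1, 3, 4, 5 or 6 (edgeR adjusted p of up to 0.10), with total counts (0.081) and in the fit of 30 libraries (0.13), so this run of 3 depends on those settings. LOC111424114 also lost its call with total counts (0.10). Another lower run, LOC111427048, LOC111427609 and LOC111427181, had differences of -0.64, -1.36 and -1.84 (log2; edgeR adjusted p of 0.012, 0.0032 and 0.0078). Its levels were highest in the horn with TMM, at 190, 414 and 121 CPM, but with total counts they were highest in posterior margin (121 CPM), head (249 CPM) and anterior margin (85.8 CPM). LOC111423659 and LOC111427048 lost their calls without the block (edgeR adjusted p = 0.37 and 0.20).

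The remaining 5 runs had smaller changes or low levels. LOC111424998, LOC111424987 and LOC111424964 were higher by 2.10, 2.35 and 0.76 (log2) but averaged at most 5.37 CPM in dorsal prothorax, and LOC111426768, LOC111426765 and LOC111426471 were higher by 0.68, 0.89 and 0.87. LOC111425538, LOC111425437 and LOC111425204 were higher by 0.57, 0.50 and 0.53. The genes LOC111413609, LOC111413608 and LOC111413606 differed by -1.29, -0.35 and -0.81, and LOC111415054, LOC111415072 and LOC111415056 by -0.33, -0.21 and -0.59. Their edgeR adjusted p ran from 0.0079 to 0.048. LOC111425538 and LOC111415072 lost their calls on leaving out any pair (up to 0.11 for both). The calls of LOC111424964 (without replicate 1, 2, 3, 4 or 6), LOC111413606 and LOC111415054 (both without replicate 2, 3, 4, 5 or 6) were lost in 5 of 6 cases, those of LOC111426471, LOC111425204 and LOC111415056 without replicate 3, 4, 5 or 6, and that of LOC111424987 without replicate 1 or 6. So in each of these 5 runs at least 1 call was lost when a pair was left out. With total counts LOC111415054, LOC111415072 and LOC111415056 all lost their calls (edgeR adjusted p = 0.31, 0.58 and 0.12). LOC111413608 and LOC111413606 then lost theirs as well (0.15 and 0.065), and the other calls of these 5 runs held.

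Transcripts of the same gene were seldom called in opposite directions. Of 1298 genes with at least 2 tested transcripts, 305 had a called one, 73 had 2 or more called in the same direction only, and 6 had transcripts called in opposite directions. Genes with a single called transcript cannot show opposite calls, and their uncalled transcripts may have moved either way. Reads are assigned to the transcripts of a gene by estimate in expected counts, so these shares are less certain than gene levels. In LOC111429113 the transcript XM_023064922.1 held 57.3 ± 5.75% of the gene's level in dorsal prothorax against 32.1 ± 8.10% in anterior margin (SD, n = 6 each), without overlap. It was higher by 0.94 ± 0.13 and the other transcript, XM_023064921.1, differed by -0.60 ± 0.08 (log2, SE; edgeR adjusted p = 0.0067 and 0.0053), while the summed gene differed by only 0.09. In LOC111427748, XM_023063015.1 held 56.2 ± 11.8% in dorsal prothorax against 26.3 ± 8.66% in anterior margin (SD, n = 6 each). Both calls of LOC111429113 held whichever pair was left out, and so did the higher call of LOC111427748, while its lower call (XM_023063014.1) was lost without replicate 1, 2, 5 or 6 (edgeR adjusted p of up to 0.067).

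The share of XM_023044368.1 in LOC111413406 was 74.0 ± 6.47% in dorsal prothorax against 35.5 ± 16.7% in anterior margin, and that of XM_023050563.1 in LOC111418102 was 70.7 ± 13.5% against 35.0 ± 11.5% (SD, n = 6 each). In LOC111418102 the transcript XM_023050555.1 was at 1.67% of the gene in dorsal prothorax, against 42.0% in anterior margin. LOC111426871 shifted least, with XM_023061696.1 at 88.0 ± 2.12% in dorsal prothorax against 82.9 ± 1.83% in anterior margin (SD, n = 6 each). LOC111427826 has 23 transcripts in the table, of which 22 were tested. Its 4 called ones, 3 higher and XM_023063162.1 lower, each held at most 1.56% of the gene in dorsal prothorax and at most 1.09% in anterior margin. Each of these 4 genes lost at least 1 call that the opposition rests on when a pair was left out. The lower call of LOC111427826 was lost without replicate 1, 2, 3, 5 or 6 (edgeR adjusted p of up to 0.10), the higher call of LOC111426871 without 1, 3, 4, 5 or 6 (0.12) and its lower call without 2, 4 or 6 (0.064). The higher call of LOC111413406 was lost without replicate 1, 3, 5 or 6 (0.071) and its lower call without 5 or 6 (0.067), and the lower call of LOC111418102 without 2, 3, 4, 5 or 6 (0.069).

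**Figure D5:**
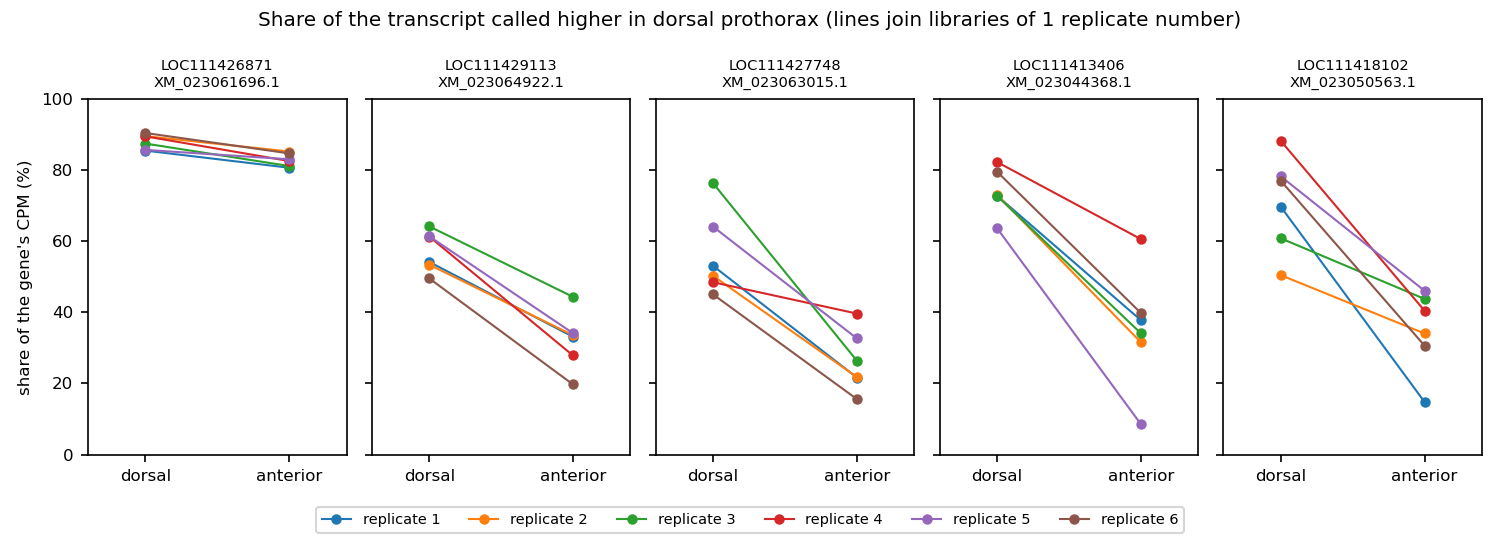
Share of a gene's CPM held by the transcript called higher in dorsal prothorax, for 5 genes, with dorsal prothorax at the left and anterior margin at the right of each panel and lines joining libraries of the same replicate number. The dorsal share is above the anterior share in every pair, with means of 88.0% against 82.9% in LOC111426871, where the gap is smallest, and 74.0% against 35.5% in LOC111413406, where it is largest. These genes were chosen for opposite calls with the same sign in all pairs. In a gene of 2 transcripts that choice alone puts the dorsal share above the anterior one in every pair.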

How the data were processed

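The authors deposited a table of expected counts (model estimates per transcript, often fractional) with 23725 RefSeq transcripts and 60 columns, all of which were mapped to a tissue by name. The tools listed, per the submitters' processing notes, are Trimmomatic 0.32, Bowtie2 2.3.2, RSEM 1.3.0 and DESeq2, and no step is tied to any of them. A build, an annotation release and a strand setting for counting are not stated there or in the labels. More than 0.001 away from a whole number were 29.7% of the deposited values, and all values were rounded. RNA was polyadenylated RNA, prepared with a stranded kit, per the labels' protocols.

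The 12 libraries were fitted with edgeR 4.0.16 (quasi-likelihood, TMM, filterByExpr with minimum count 10 and minimum total count 15; limma 3.58.1, R 4.3.3), with replicate number as a block. This left 12080 transcripts, and the Benjamini-Hochberg threshold for a call was 0.05. The pairs were set by the replicate numbers in the sample titles and column headers. The labels do not state that a number is an individual, so the pairing was checked in the data. Deviations of same-numbered libraries from their tissue means correlated at r = 0.198 to 0.319, against -0.134 to 0.0312 for other pairs, and all 6 libraries of each tissue correlated best with their own number. The labels call the replicates biological. No 2 libraries of a tissue agreed within sampling noise (chi-square per degree of freedom at least 66.0). Depth limits low transcripts most, and floors cover counting error only. The paired fit was tested on simulated data.

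Levels in all tissues are CPM scaled by TMM over the 60 libraries. Position is the difference in log2 CPM (prior count 2) from anterior margin over that between dorsal prothorax and anterior margin. Named transcripts were called, with the same sign in all 6 pairs. They were the 8 largest changes in each direction with at least 5 CPM in the higher tissue, the 4 smallest p, the 4 most abundant of at least 2-fold, all with a symbol other than a locus number, members of runs of 3 or more neighbours, and genes with transcripts called in opposite directions. Transcripts at least 4 times higher in the tissue than in each other tissue, and 2 of the 6 genes with opposite calls (LOC111413406 and LOC111418102), were added after their values were seen, and LOC111429421 of these is not of the same sign in all pairs. Planned lists by protein name or protein motif, and cell type markers, were void, since the genes carry locus numbers. Gene names and order come from the RefSeq gene table of assembly IU_Otau_3.0. The comparison, members and lists were chosen with earlier results of these data known. Alternatives were no block, 30 libraries of 5 tissues, other scalings and filters, gene sums, DESeq2 1.42.0, limma-voom and leaving out each pair. Levels of named transcripts under total counts were added after seeing the data.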

Additional observations from a re-analysis of the deposited data

Results flagged for a closer look

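In 159 groups of 6 libraries of the named transcripts, the highest or lowest library was set against its nearest neighbour, and 16 groups had a library that stood apart from the other 5. The cut-off flags about 1 in 20 groups by chance only where values are normally distributed. All 16 stood apart at the highest end, some of them with every other library at 0. The 16 of 159 can therefore not be read against that rate. The groups are also not independent, since several transcripts share a library.

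In dorsal prothorax, library 4 had 1190 CPM of LOC111429171 (XM_023065013.1) against at most 347 CPM in the others, and library 2 had 453 CPM of LOC111414734 (XM_023046169.1) against at most 122 CPM. Library 3 had 5.56 CPM of LOC111428004 (XM_023063387.1) against at most 3.18 CPM. The others were at 0 where library 1 had 3.82 CPM of XM_023061940.1, 1.3 CPM of LOC111422534 (XM_023055753.1) and 2.53 CPM of XM_023056267.1, and where library 2 had 4.04 CPM of LOC111418242 (XM_023050741.1).

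In anterior margin, library 4 had 33.9 CPM of LOC111429171 (XM_023065013.1) against at most 8.10 CPM in the others, 75.5 CPM of LOC111422534 (XM_023055753.1) against at most 35.2 CPM, 402 CPM of LOC111416097 (XM_023048045.1) against at most 151 CPM, and 145 CPM of LOC111427048 (XM_023062002.1) against at most 84.1 CPM. Library 1 had 9470 CPM of LOC111421936 (XR_002707260.1) against at most 4497 CPM, 14050 CPM of XR_002707011.1 against at most 6566 CPM, and 187 CPM of LOC111425437 (XM_023059438.1) against at most 126 CPM. Library 2 had 2.99 CPM of XR_002706377.1 against at most 1.07 CPM, and 13.5 CPM of LOC111414125 (XM_023045312.1) against at most 3.71 CPM.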

How the results depend on the processing

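The number of calls, 1812 with the replicate block (909 higher, 903 lower), fell to 938 (449 higher, 489 lower) without the block, 877 of them among the 1812, and to 1023 (450 higher, 573 lower, 213 higher by at least 2-fold) with 30 libraries and no block. DESeq2 called 2896 (1505 higher, 1391 lower, 514 and 566 of them at least 2-fold), including all 1812. Total counts gave 1080 higher and 500 lower, and kept 1330 of the 1812. Leaving out a pair gave 1037 to 1464 calls, 513 to 774 higher and 524 to 690 lower. RLE size factors (1813), a CPM minimum (1856), no filter (1345), the 30 libraries with the block (2062), gene sums (2386) and limma-voom (2470) stayed within 1.5 times. Of 81 named transcripts 47 kept their call whichever pair was left out, 25 lost it without the block, 13 lost it with total counts, and 31 kept it in all alternatives run. The genes of XM_023063162.1 (0.11, log2), XM_023063014.1 (0.025), XM_023064921.1 (0.087) and XM_023061695.1 (0.12), all lower as transcripts, changed sign when transcripts were summed per gene. None of these sums was called (edgeR adjusted p = 0.43, 0.82, 0.29 and 0.15). Each gene has transcripts that moved the other way, and the calls of those higher transcripts were likewise not kept in the sums. With total counts the median positions in the higher set became -0.071 for the carinated margin, -0.73 for the horn, -0.157 for the abdominal support and -0.98 for the head. In the lower set they became 0.41 for the posterior margin, 0.47 for the carinated margin, 2.10 for the horn, 0.33 for the abdominal support and 0.43 for the head. With 2-fold changes alone they were 0.15 (abdominal support) and -0.10 (head) in the higher set, and 0.32 (carinated margin), 0.51 (wing) and 0.27 (head) in the lower set. The cause was not tested. The planned test by protein list was not run. Calls are fewest at low depth, with 2.75% of transcripts under 1 CPM called.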
